A study of Mus musculus with 24 samples.

Results

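The lower jaw of the embryonic mouse was compared along its length: 3 arrays of the distal end of the mandible were set against 3 arrays of its proximal end, all from control embryos at embryonic day 13.5. The arrays were chosen by their labels alone, and these 6 are part of 24 arrays in 8 groups of 3, in which both jaws of control and mutant embryos were cut into distal and proximal pieces. All mice had a C57B6 background. The embryos came from Wnt1cre;Tgfbr2fl/+ mice crossed with Tgfbr2fl/fl mice, so every control inherits at least 1 floxed Tgfbr2 allele, the gene of the type II TGF-beta receptor. Controls are the littermates of mutants, and the labels do not give their Cre status. Mutants, used here for 1 comparison, were picked by cleft palate and a defect of the skull vault, and carry the deletion only where Wnt1cre is active, in the neural crest and its descendants. Whether an array holds 1 embryo or several is not stated, so the p-values rest on how far these arrays scatter, and that scatter may be technical. Each array started from 5 µg of total RNA.

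The mandible grows from the first pharyngeal arch. Its connective tissue, cartilage, bone and tendon come from neural crest, its muscle cells come from head mesoderm, and its cover is oral and surface epithelium. The arch is patterned along its length while it grows: BMP and endothelin signals from the distal epithelium drive Hand2, Msx and Alx genes in the mesenchyme at the future chin and incisor field, while the proximal part, near the jaw joint and the molar field, uses Barx1, Dlx and Nr2f genes. The ends also differ in what they contain, since the incisor field lies distally, and jaw-closing muscles, the mouth floor and the border with the second arch lie towards the proximal side.

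The values are RMA-normalised array signals on a log2 scale, so a difference of 1 is 2-fold. Of 18194 genes with a probe set of their own, 13850 were bright enough to be tested. A gene is called when its adjusted p is under 0.05, and a difference is always distal minus proximal, given with its standard error (SE). The brightness cutoff for testing lay between 6.296 and 6.329 on these arrays. Where 1 end was under it on all 3 arrays, the other end is given as at least so many fold above the cutoff, since the fitted difference then rests on values that are not above it. The 6 arrays had medians of 7.04 to 7.06, their Gapdh 3′ minus 5′ control values lay between -0.074 and 0.158, with the 3 distal arrays above the 3 proximal ones, and no pair correlated above 0.9954. Array 1 of each end was low in the X-inactivation transcript Xist (6.40 distally, 6.23 proximally) and the others were at 13.65 or above. Y-linked genes averaged 10.03 and 9.82 on arrays 1 and 3.72 to 3.82 on the others. Arrays 1 thus read as male and the others as female, at both ends. Proximal array 2 stands apart: it was the lowest of the proximal arrays in Hox and Cxcl13 signal and the highest in Alx1, Pax3 and Shh. Distal array 3 stands apart in being the highest of the distal arrays in muscle signal. Values of these arrays are given beside the results that they touch.

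The ends of the mandible differed in 1844 genes. Of the 13850 tested, 864 were called higher distally (6.24%) and 980 higher proximally (7.08%), and without an adjustment 3434 had a p under 0.05. Most fitted differences were modest: 166 of the distal and 286 of the proximal genes exceeded 2-fold, and 6 distal against 36 proximal genes exceeded 8-fold. In 1818 of the 1844 the 3 distal arrays lay wholly above or below the 3 proximal ones. The calls come from the same arrays and favour such genes, so this count is no separate support for them. With the replicate number as a block the counts were 1590 and 1708, and 1841 of the 1844 kept their call and direction. The counts fell when an array pair was left out: to 465 and 494 without both arrays 1, to 416 and 628 without both arrays 2, and to 432 and 555 without both arrays 3. In whole tissue, fewer cells of a type and less RNA per cell cannot be told apart.

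The paired-type homeobox gene Alx1, which marks frontonasal and distal arch mesenchyme, had the largest distal difference of all genes tested. Its probe set read 11.95, 12.25 and 11.84 distally and 6.76, 8.35 and 7.49 proximally, a difference of 4.48 ± 0.57 (SE; 22.3-fold; adjusted p = 2.39e-05). The ends did not overlap, and proximal array 2 was the highest of the proximal arrays. Hand2, the basic helix-loop-helix factor that endothelin signalling turns on in the ventral arch, read 13.28, 13.45 and 13.17 distally and 11.09, 11.68 and 11.48 proximally. Its difference of 1.88 ± 0.45 (adjusted p = 0.00826) is a graded one, since the proximal mandible was itself far above the control maxilla at 7.90 ± 1.13 (SD, n = 3) proximally and 8.14 ± 0.53 distally. The call on Hand2 was lost without any of the 3 pairs of same-numbered arrays (adjusted p between 0.0516 and 0.0955). Bmp4, the distal epithelial and mesenchymal ligand, followed at 11.996, 12.11 and 11.93 against 10.55, 10.83 and 10.57 (difference 1.36 ± 0.20, adjusted p = 9.24e-05).

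The intracellular inhibitors that BMP signalling itself induces were also higher distally. Smad7, an inhibitor of TGF-beta and BMP receptors, differed by 0.61 ± 0.08 (adjusted p = 2.9e-05) and Smad6 by 0.54 ± 0.12 (adjusted p = 0.00501). The related homeobox gene Alx4 differed by 0.90 ± 0.17 (adjusted p = 0.00099). Msx2, a target of BMP, read 9.64, 9.96 and 9.81 distally and 8.36, 8.34 and 8.86 proximally (1.28 ± 0.34, adjusted p = 0.0164), and its adjusted p rose to 0.0662 without distal array 2, 0.0631 without proximal array 1 and 0.0614 without proximal array 2. Its relative Msx1 had arrays that did not overlap (12.80, 12.68 and 12.51 against 11.56, 12.08 and 11.76) but was not called (adjusted p = 0.0859). Over the distal programme list of 23 tested genes, 11 were called higher distally and 5 higher proximally, with a median difference of 0.54 where the median of all genes was 0.00039. The distal count was 6 without both arrays 1 or both arrays 2.

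The 5 members of that list called proximally include the paired Dlx genes of the lower jaw, which mark the whole mandibular arch. Dlx5 read 10.53, 10.73 and 10.66 distally and 11.46, 11.75 and 11.64 proximally (difference -0.98 ± 0.19, adjusted p = 0.00122). Its neighbour Dlx6 was at 9.17, 9.47 and 9.41 against 10.62, 10.85 and 10.75 (-1.39 ± 0.23, adjusted p = 0.000306). The co-activator Cited1 (-1.45 ± 0.16, adjusted p = 8.62e-06) and the G-protein regulator Rgs5, also a pericyte gene (-1.78 ± 0.34, adjusted p = 0.00116), were lower distally by more than their spread. The fifth, Dlx4, lay at 6.82, 6.90 and 6.69 against 8.05, 7.23 and 8.31 (adjusted p = 0.034), and its call ended without any 1 of 5 of the 6 arrays, proximal array 2 being the exception (adjusted p 0.0723 to 0.167).

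Barx1, a homeobox gene of the molar field and of proximal mesenchyme, was the most sharply divided patterning gene on the proximal side. It read 8.58, 8.51 and 8.51 distally and 11.61, 11.90 and 11.80 proximally, which is 9.42-fold (difference -3.24 ± 0.24, adjusted p = 4.91e-07). The 3 distal arrays differed among themselves by less than 0.1, and the ends were far apart. The orphan nuclear receptor Nr2f1 read 10.07, 8.89 and 9.72 distally against 11.85, 11.85 and 11.996 (-2.34 ± 0.20, adjusted p = 1.23e-06), and its relative Nr2f2 differed by -1.28 ± 0.17 (adjusted p = 3.52e-05). Dlx1, a Dlx gene of the proximal arch, was at 9.38, 8.84 and 9.03 against 10.62, 10.64 and 10.70 (-1.57 ± 0.25, adjusted p = 0.000195). The transcript listed as Dlx1as, antisense to Dlx1, differed more (-4.07 ± 0.51, adjusted p = 2.31e-05), while Dlx2, beside Dlx1 in the genome, was not called (-0.21 ± 0.21, adjusted p = 0.641). The forkhead gene Foxp2 (-1.71 ± 0.30, adjusted p = 0.000703) was also higher proximally.

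The list of proximal and intermediate jaw genes was not one-sided. Of 24 tested, 6 were called higher proximally and 4 higher distally, with a median of -0.22. The Notch effector Hey2 led the opposing members at 10.73, 10.74 and 10.74 against 8.26, 8.46 and 8.51 (difference 2.33 ± 0.25, adjusted p = 7.65e-06), and the Notch ligand Jag1 was also higher distally (0.55 ± 0.11, adjusted p = 0.00221). Emx2, a homeobox gene, differed by 0.98 ± 0.17 (adjusted p = 0.000533). The homeobox genes Pitx1 and Gsc were not called (adjusted p = 0.795 and 0.328).

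Prrx1, a general marker of limb and facial mesenchyme, lay between 13.43 and 13.64 distally and 13.33 and 13.54 proximally and was not called (adjusted p = 0.581). Of the 15 mesenchyme identity genes, 6 were called higher distally and 3 higher proximally, and the distal count was 3 without proximal array 2. The clearest member was Tfap2a, which is also an epithelial gene (1.15 ± 0.13, adjusted p = 1.2e-05), followed by Snai1, a regulator of crest migration (0.76 ± 0.15, adjusted p = 0.00195). Tgfbr2 itself did not differ detectably between the ends at its brightest probe set (-0.14 ± 0.11, adjusted p = 0.513). Its other probe sets gave -0.36 and 0.03 and were not tested.

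**Figure D1:**
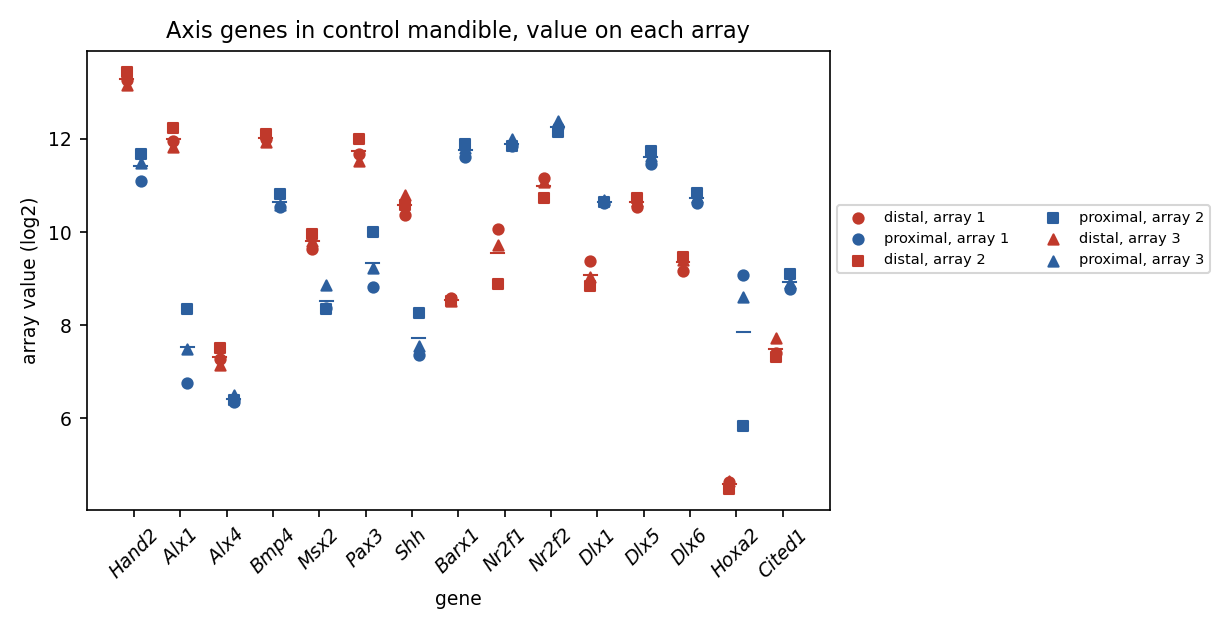
Log2 array value (vertical axis) of 15 axis genes on each of the 3 distal (red) and 3 proximal (blue) control mandible arrays, with the array number as symbol and the mean as a bar. All 15 are genes called in this comparison. Calls favour genes whose points do not overlap, so the lack of overlap in all 15 is no separate support. Proximal array 2 (blue square) is the highest proximal point for Alx1, Pax3 and Shh and the lowest for Hoxa2.

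Skeletal muscle genes supplied most of the largest proximal differences. Of 41 contractile and synaptic genes tested, 37 were called higher proximally and none distally, and all 41 had a negative difference, with a median of -2.49. Leaving out any 1 array left 35 or 36 called. The mean of the list was 7.04, 6.79 and 7.62 on the distal arrays and 10.15, 9.46 and 9.72 on the proximal ones, so distal array 3 was the highest distally and still lay well below the lowest proximal array. Tnnc2, the calcium-binding subunit of fast troponin, had the largest fitted difference of all genes tested (-4.91 ± 0.50, 29.97-fold, adjusted p = 4.94e-06). It read 6.23, 6.21 and 7.86 distally and 11.98, 11.41 and 11.63 proximally. Its distal arrays 1 and 2 lay under the brightness cutoff, so the fitted size is not exact. The fast myosin light chains Myl1 (-4.32 ± 0.44) and Mylpf (-4.29 ± 0.43), the embryonic myosin heavy chain Myh3 (-4.30 ± 0.51) and skeletal actin Acta1 (-4.18 ± 0.42) were close behind, and all were called.

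Regulators of head muscle were mostly on the same side. Myog, which drives differentiation, read 9.24, 8.65 and 9.96 distally and 12.32, 11.74 and 12.06 proximally (-2.76 ± 0.33, adjusted p = 1.34e-05). The determination factor Myod1 differed by -2.01 ± 0.33 (adjusted p = 0.000306), and Msc, a regulator of jaw muscle precursors, by -2.44 ± 0.39 (adjusted p = 0.000235). The fusion genes Mymk (-2.10 ± 0.38) and Mymx (-3.43 ± 0.47) and the satellite-lineage gene Pax7 (-2.57 ± 0.42) were called as well. Its relative Pax3 ran the other way, at 11.68, 12.001 and 11.52 distally and 8.81, 9.999 and 9.22 proximally (2.39 ± 0.45, adjusted p = 0.00108). Pax3 is also a neural crest gene. Over the list, 9 of 20 were called higher proximally and 1, Pax3, higher distally.

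The promoters of the muscle genes are shown for the E-box that myogenic factors bind, CAGCTG, because these genes moved together. RefSeq promoters (build GRCm38.p6, 250 bases before to 50 after a start) were found for 31 of the 37 called genes, 35 promoters in all, and 17 of them (48.6%) held CAGCTG, a palindrome that reads alike on both strands. Among all 14188 promoters of tested genes the share was 15.9%, among those of genes called higher distally 134 of 838, and among those called higher proximally 23.8%, or 23.0% without the 2 muscle lists. The E-box CAGATG, of the type that Hand and Twist factors bind, was in 22.9% of the muscle promoters and in 1697 of the 14188, with either strand counted. In the promoters of all genes called higher distally and of those called higher proximally it stood at 11.9% and 14.1%. The homeodomain motif TAATTG was in 5.73% and 4.19% of these against 4.86% of all, and the palindrome TGACGTCA, searched as a control, in 2.39% and 1.33% against 2.81%. A match is a description of letters and does not show binding. The 250 bases upstream of the start follow for Myl1 (chr1:66945057-66945306, minus strand), Mylpf (chr7:127211358-127211607, plus), Acta1 (chr8:123894776-123895025, minus) and Chrna1, the acetylcholine receptor alpha subunit of the muscle synapse (chr2:73580339-73580588, minus), with CAGCTG in capitals. The first 3 are the single-promoter genes of the list with the largest differences that hold it, and Chrna1 (-2.15) holds it 2 times.
Myl1: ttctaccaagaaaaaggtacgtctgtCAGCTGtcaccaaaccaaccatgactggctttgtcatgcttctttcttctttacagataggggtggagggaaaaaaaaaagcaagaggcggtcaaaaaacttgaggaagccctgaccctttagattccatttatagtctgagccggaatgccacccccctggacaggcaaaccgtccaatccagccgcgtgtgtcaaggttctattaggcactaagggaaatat
Mylpf: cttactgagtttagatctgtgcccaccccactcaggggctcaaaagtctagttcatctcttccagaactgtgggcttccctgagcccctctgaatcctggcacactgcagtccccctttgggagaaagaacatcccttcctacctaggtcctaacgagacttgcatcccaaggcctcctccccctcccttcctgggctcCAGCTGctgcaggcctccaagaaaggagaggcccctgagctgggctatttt
Acta1: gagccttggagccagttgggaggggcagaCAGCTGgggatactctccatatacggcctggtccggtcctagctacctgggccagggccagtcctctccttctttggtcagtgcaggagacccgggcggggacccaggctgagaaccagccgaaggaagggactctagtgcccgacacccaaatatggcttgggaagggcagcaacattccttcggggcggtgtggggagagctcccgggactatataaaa
Chrna1: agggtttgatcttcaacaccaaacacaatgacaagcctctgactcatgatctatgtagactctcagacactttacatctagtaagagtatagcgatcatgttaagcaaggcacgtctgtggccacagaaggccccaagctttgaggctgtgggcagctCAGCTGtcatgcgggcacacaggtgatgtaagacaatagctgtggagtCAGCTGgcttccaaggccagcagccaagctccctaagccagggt

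Epithelial genes were higher distally as a group. Of 36 genes of oral and surface epithelium, 21 were called higher distally and none proximally, 33 had a positive difference, and the median was 0.95. The mean of the list was 9.92, 9.90 and 10.09 on the distal arrays and 9.22, 8.97 and 9.11 on the proximal ones, with no overlap. The basal keratins showed it well: Krt14 read 12.76, 12.67 and 12.84 against 11.25, 11.26 and 10.99 (1.59 ± 0.16, adjusted p = 4.3e-06), and its partner Krt5 differed by 1.48 ± 0.20 (adjusted p = 3.57e-05). The laminin chain gene Lamb3 (1.51 ± 0.18), the desmosomal cadherin Dsg2 (1.44 ± 0.14) and the plaque gene Pkp1 (1.43 ± 0.21) differed by similar amounts. Tfap2c went further, at 10.50, 10.27 and 10.55 against 8.45, 8.14 and 8.58 (2.05 ± 0.20, adjusted p = 3.4e-06). With the replicate number as a block 27 were called, and 16 to 20 were called without 1 of the array pairs.

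Several genes of stratified epithelium that are not in the list differed more. The desmosomal cadherins Dsc3 (2.52 ± 0.27), Dsg1a (at least 3.44-fold) and Dsg1b (at least 1.07-fold) and the keratin Krt6a (3.01 ± 0.39) were among the 15 largest fitted distal differences. Other probe sets gave 1.58 and 1.21 for Krt6a and 0.62 for Dsc3. Dsg1a and Dsg1b are near-identical copies whose probe sets may share signal. Odam, an ameloblast-associated gene, read 5.97, 7.27 and 7.45 distally and 4.19, 4.41 and 3.99 proximally (at least 0.58 higher distally on the log2 scale, adjusted p = 0.000155). Otx1, a homeobox gene of anterior ectoderm and brain, differed by 2.21 ± 0.24 (adjusted p = 7.79e-06).

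Genes of the tooth field were called in both directions. Shh, the ligand of the early tooth epithelium, read 10.38, 10.57 and 10.80 distally and 7.35, 8.26 and 7.55 proximally (2.86 ± 0.29, 7.28-fold, adjusted p = 4.25e-06). Lef1, the WNT effector of tooth buds, differed by 1.15 ± 0.16 (adjusted p = 4.42e-05). The dental papilla ligand Fgf3 was at least 1.43-fold higher (adjusted p = 3.28e-05), and the epithelial factor Sp6 by 0.91 ± 0.16 (adjusted p = 0.000541). In all, 8 of 26 were called higher distally and 3 proximally, and the 3 were Barx1, Dlx1 and the WNT antagonist Sfrp2 (-1.23 ± 0.11, adjusted p = 1.23e-06). The distal count was 5 without any of the 3 array pairs. Of 14 tongue and oropharyngeal epithelium genes, 6 were called higher distally, among them Nkx2-3 (1.00 ± 0.13, adjusted p = 3.75e-05) and Tbx3, also a mesenchymal gene (1.07 ± 0.14, adjusted p = 3.82e-05).

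Among WNT genes, most calls were distal. Of 53 ligands, receptors, inhibitors and targets, 23 were called higher distally and 6 proximally, with a median of 0.42. Among the ligands, Wnt5a, the non-canonical ligand of distal mesenchyme, read 12.98, 12.93 and 12.89 against 11.73, 11.72 and 11.56 (1.26 ± 0.13, adjusted p = 5.04e-06), and the inhibitor Sostdc1 differed by 1.09, a call that ended without any of the 3 array pairs. The WNT inhibitor Rnf43, which removes Frizzled receptors, differed by 1.21 ± 0.16 and the WNT effector Lef1 by 1.15 ± 0.16, both called. The receptor of R-spondins Lgr6 differed by 1.80 ± 0.19 (adjusted p = 5.18e-06).

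The secreted Frizzled-related proteins were split between the ends. Sfrp4 read 11.20, 11.75 and 10.85 distally and 7.87, 8.995 and 8.49 proximally (2.81 ± 0.29, adjusted p = 5.13e-06), whereas Sfrp1 read 10.15, 10.42 and 9.87 against 11.52, 11.62 and 11.56 (-1.42 ± 0.27, adjusted p = 0.00139). The third, Sfrp2, was lower distally, as given among the tooth genes. The receptor Fzd8 was also higher proximally (-0.78 ± 0.11, adjusted p = 5.42e-05). Without distal array 2 the proximal count was 3. Several WNT genes are expressed in epithelium, whose list mean was higher distally on every array, and the part of that in the WNT values was not tested.

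BMP genes were called in both directions. Of 28 genes, 8 were called higher distally and 6 proximally. Bmp4 led the distal members. Of the proximal 6, 4 are secreted antagonists or modulators, Grem1, Bmper, Chrdl1 and Nog, and Nog (-0.47, adjusted p = 0.0381) lost its call without any single array (adjusted p 0.0524 to 0.132). Grem1 read 7.64, 7.50 and 7.77 distally and 9.06, 9.15 and 9.10 proximally (-1.46 ± 0.17, adjusted p = 1.13e-05), Bmper differed by -1.72 ± 0.25 (adjusted p = 8.74e-05) and Chrdl1 by -1.23 ± 0.24 (adjusted p = 0.0014). The joint ligand Gdf5 (-1.90 ± 0.36, adjusted p = 0.00125) and the receptor Bmpr1b, which binds it (-1.25 ± 0.16, adjusted p = 3.03e-05), were proximal too. The distal count was 5 without distal array 2 and 4 without proximal array 1.

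Among FGF genes, 4 of 25 were called higher distally and 7 proximally, and the proximal count was 3 without both arrays 1. The receptors Fgfr1 (0.44 ± 0.07, adjusted p = 0.000206) and Fgfr2 (0.62 ± 0.08, adjusted p = 3.74e-05) were modestly higher distally, and the muscle-precursor receptor Fgfr4 was higher proximally (-1.71 ± 0.29, adjusted p = 0.000389). Other probe sets of Fgfr4 gave smaller differences of -0.91, -0.46, -0.23 and -0.095. Fgf7, a mesenchymal ligand for epithelium, read 7.96, 7.88 and 8.48 against 9.99, 9.54 and 9.94 (-1.72 ± 0.21, adjusted p = 1.4e-05). Of 22 hedgehog genes, 5 were called higher distally and 1 proximally: beside Shh, the inhibitory target Hhip differed by 1.12 ± 0.22 (adjusted p = 0.00176) and the effector Gli2 by 0.53 ± 0.06 (adjusted p = 1.09e-05). The hedgehog distal count was 3 without distal array 1.

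Retinoic acid synthesis and breakdown were divided. The synthesising enzyme Aldh1a2 read 9.05, 9.34 and 8.66 distally and 10.72, 10.74 and 10.79 proximally (-1.73 ± 0.14, adjusted p = 7.98e-07), and Aldh1a3 differed by -1.44 ± 0.27 (adjusted p = 0.00127). Other probe sets of Aldh1a3 gave -0.57 and -0.78. The degrading enzyme Cyp26b1 read 10.99, 11.49 and 10.83 distally against 9.91, 10.18 and 9.74 (1.16 ± 0.26, adjusted p = 0.00521). Of 15 genes, 5 were called higher proximally and 2 distally, and the proximal count was 3 without distal array 1, distal array 2 or proximal array 1. TGF-beta genes showed no common side, with 4 of 26 called higher distally and 3 proximally, and the distal 4 became 2 without distal array 2, distal array 3, proximal array 2 or proximal array 3. The proximal 3 were the activin subunit Inhbb (-1.05 ± 0.21, adjusted p = 0.00184), the matrix gene Tgfbi, a target of TGF-beta (-0.81 ± 0.17, adjusted p = 0.00313; 0.0601 without both arrays 2), and the ligand Tgfb3 (-0.62). Tgfb3 lost its call without distal array 1, distal array 3, proximal array 2 or proximal array 3 (adjusted p 0.0505 to 0.116), and another probe set of Inhbb gave -0.12.

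Cartilage genes were mostly lower distally in sign: 22 of 24 had a negative difference, with a median of -0.37. In each direction 1 of 24 was called, where 6.24% of all genes were called distally and 7.08% proximally. The list means of 8.89, 10.78 and 10.02 distally and 9.81, 10.81 and 10.41 proximally overlapped and varied more among arrays of an end than between the ends. Within each number the proximal array was the higher. The distal call was Trps1, a repressor in cartilage and other mesenchyme (1.68 ± 0.34, adjusted p = 0.00193), and the proximal call, Epyc, ended without distal array 1 (adjusted p = 0.0528). Bone genes were called higher proximally in 5 of 15, among them the osteoblast membrane gene Ifitm5, at 9.34, 9.51 and 10.24 against 10.76, 12.03 and 11.27 (-1.66 ± 0.30, adjusted p = 0.00077). The bone count was 3 without both arrays 2. Of 16 tendon genes, 4 were called higher proximally and 2 distally. The tendon factor Scx read 6.03, 6.03 and 6.94 against 8.02, 8.34 and 8.14 (-1.83 ± 0.21, adjusted p = 9.7e-06). Its distal arrays 1 and 2 lay under the brightness cutoff, so the fitted size is not exact. The matrix gene Thbs4 of muscle and tendon differed by -2.59 ± 0.37 (adjusted p = 8.16e-05). The 2 distal tendon calls, Egr2 and Fmod, became 1 or none without any single array.

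Of 19 macrophage and myeloid genes, 10 were called higher proximally and none distally, with list means of 9.22, 9.17 and 9.38 distally and 9.85, 9.47 and 9.83 proximally. The lysosomal protease Ctss was the steadiest member, at 10.42, 10.26 and 10.45 against 11.09, 10.72 and 11.09 (-0.59 ± 0.10, adjusted p = 0.000307), and the complement gene C1qc differed by -0.76 ± 0.17 (adjusted p = 0.00394). The count was 5 without proximal array 1 and 6 without distal array 2. It was 2 without both arrays 1, 5 without both arrays 3 and 14 with the replicate block. Pericyte and smooth muscle genes were called higher proximally in 5 of 11, with Acta2, smooth muscle actin, which early skeletal muscle also makes, at 11.77, 11.28 and 11.96 against 13.45, 13.18 and 13.27 (-1.63 ± 0.21, adjusted p = 3.03e-05), and the pericyte channel gene Kcnj8 at -1.73 ± 0.26 (adjusted p = 0.000154). Endothelial genes were called in 3 of 22, a share close to that of all genes, 1 distally and 2 proximally (1 proximally without distal array 2, proximal array 1 or proximal array 3), with Sox18 higher distally (0.92 ± 0.14, adjusted p = 0.000111), and none of 9 red cell genes was called.

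Hox genes, which first-arch crest lacks and second-arch tissue expresses, were followed as a mark of second-arch tissue. Hoxa2, the selector of second-arch identity, read 4.62, 4.47 and 4.64 distally and 9.08, 5.84 and 8.61 proximally (adjusted p = 0.00303). All 3 distal values lie under the cutoff, so it was at least 2.90-fold higher proximally, with an adjusted p of 0.0621 without both arrays 1 and 0.0518 without both arrays 3. Proximal arrays 1 and 3 were far above all distal arrays, and proximal array 2 was above them but also under the cutoff. Hoxb2 lay at 6.72, 6.53 and 7.20 against 9.68, 7.16 and 8.81, with array 2 inside the distal range, and its adjusted p of 0.00878 became 0.0615 without proximal array 1. Of the 10 tested genes of the list of second-arch and Hox-expressing tissue, 3 were called higher proximally: Hoxa2, Hoxb2 and the cofactor gene Pbx3 (-0.54). With the replicate block 5 were called, 8 were called without proximal array 2, and none without both arrays 1. The list means were 7.96, 7.59 and 8.07 distally and 9.48, 8.10 and 9.18 proximally. What part a share of second-arch tissue has in the other proximal genes was not tested; without proximal array 2, 591 genes were called higher distally and 920 higher proximally.

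Of 29 sensory neuron and axon genes, 1 was called higher distally and 2 proximally, where 6.24% and 7.08% of all genes were called. The list means lay close together without overlapping, at 7.64, 7.54 and 7.67 distally and 7.71, 7.70 and 7.76 proximally. Pou4f1, a defining factor of sensory ganglia, was at 4.58, 4.58 and 4.67 distally and 4.59, 4.54 and 5.04 proximally, and on every one of the 6 arrays it lay under the brightness cutoff, as did Neurod1, Neurog2, Scn9a, Nefh and Tlx3. The neurotrophin receptor Ntrk3, which mesenchyme also expresses, was the clearest proximal member (at least 5.03-fold, adjusted p = 9.63e-06), and the receptor Ret the distal one, at 8.52, 8.35 and 8.29 against 5.51, 6.63 and 6.35 (2.22 ± 0.41, adjusted p = 0.000882). Another probe set of Ret gave 0.38, and other probe sets of Ntrk3 gave differences between -1.28 and -0.059. With the replicate block 3 sensory neuron genes were called in each direction. Of 18 Schwann cell genes 1 was called in each direction, a share close to that of all genes. The proximal count was 0 without distal array 1 or proximal array 1, 2 without distal array 2 or proximal array 2, and 4 with the replicate block. Among 37 axon guidance genes, 8 were called higher distally and 4 proximally, all under 2-fold, and the distal count was 5 without distal array 3 and 4 without proximal array 1. The proximal 4 became 2 without distal array 1 and 0 without both arrays 1.

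Of 30 cell cycle genes, 2 were called in each direction, a share close to that of all genes (6.24% distally and 7.08% proximally). The inhibitor Cdkn2c had the largest called difference (0.74 ± 0.09, adjusted p = 1.45e-05). The distal count was 1 without distal array 2, distal array 3 or proximal array 3. The proximal count was 0 without distal array 1, proximal array 1 or proximal array 3, 1 without any of the others, and 4 with the replicate block. Of 27 hypoxia and glycolysis genes 3 were called higher distally, including the glucose transporter Slc2a1 (0.57 ± 0.12, adjusted p = 0.00258). The hypoxia count was 1 without distal array 3, proximal array 1 or proximal array 3. Of 20 immediate early and heat shock genes 4 were called higher distally and 1 proximally, and the distal genes include Fosl2 (0.89 ± 0.18, adjusted p = 0.00184), of which another probe set gave 0.11. Egr3, the largest of them at 3.09 ± 0.49 (adjusted p = 0.000225), rests on its brighter probe set: the other, also above the cutoff, gave -0.07.

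**Figure D2:**
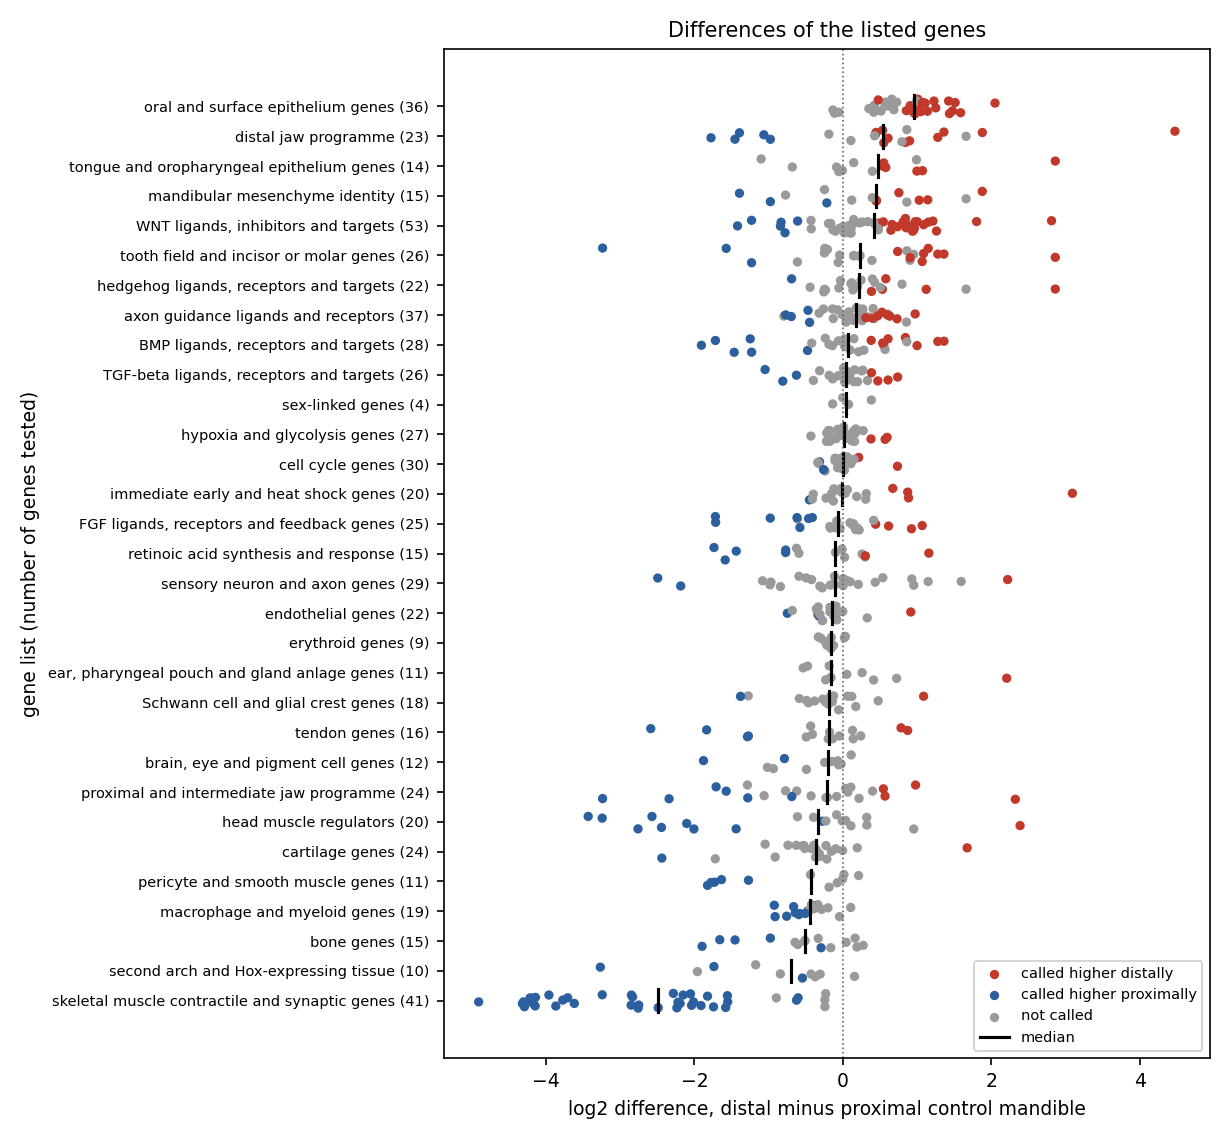
Log2 difference, distal minus proximal (horizontal axis), of every tested member of 31 gene lists (vertical axis, ordered by median; number tested in brackets). Red points are called higher distally, blue points higher proximally and grey points neither, and bars are medians. Muscle contractile genes lie at the bottom with a median of -2.49 and epithelium genes at the top with 0.95.

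Some of the largest differences belong to genes in none of these lists. Crh, the corticotropin-releasing hormone, read 4.08, 3.72 and 3.82 distally and 7.99, 7.95 and 8.53 proximally (at least 3.60-fold higher proximally, adjusted p = 3.06e-06). The B-cell chemokine Cxcl13 read 4.99, 4.95 and 6.40 against 9.93, 8.43 and 10.25 (-4.09 ± 0.53, adjusted p = 3.29e-05), with proximal array 2 the lowest of its end. Its distal arrays 1 and 2 lay under the cutoff, so the fitted size is not exact, and another probe set gave -1.47. Tceal7 (at least 10.4-fold) and the myosin-binding gene Mybph (-4.21 ± 0.45) were high on the same side as muscle. Distally, the thioesterase gene Them5 read 8.12, 8.30 and 8.62 against 4.87, 4.96 and 4.88 (at least 4.10-fold, adjusted p = 1.23e-06), while its other probe sets gave differences of 0.10 and 1.30. Klhl14 was at least 3.84-fold higher distally (adjusted p = 7.79e-06) and the transcript 4930426D05Rik at least 5.27-fold (adjusted p = 2.8e-05). Hpse2 differed by 2.56 ± 0.73 (adjusted p = 0.0238) and its call ended without distal array 1, 2 or 3 and without proximal array 1 or 2, with an adjusted p of up to 0.168 over the alternatives. Of the 15 largest fitted differences in each direction, 29 of 30 kept their call under all alternatives that gave a value, Hpse2 being the exception.

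The axis of the mandible was then set beside that of the control maxilla, divided in the same way, to ask which differences belong to this jaw. In the maxilla 467 genes were called higher distally (3.37%) and 372 higher proximally (2.69%). Of the 1844 mandibular genes, 1538 had the same sign in the maxilla and 382 were called there in the same direction, which is 20.7% of the mandibular and 45.5% of the maxillary calls, and 9 were called in the opposite one. Across the 13850 genes the differences correlated at a Pearson r of 0.438 and a Spearman rho of 0.417, as a description over genes that are not independent. The median size of the mandibular calls was 0.592 in the mandible and 0.208, in the same direction, in the maxilla.

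The difference between the axes was tested directly as an interaction. The distal minus proximal difference was more positive in the mandible than the maxilla in 157 called genes (1.13%) and more negative in 221 (1.6%). The sign is that of the difference of axes and not of a level in either jaw. Of these 378 genes, 280 were also called in the mandible itself. Leaving out 1 array moved these counts, to 98 and 117 without distal array 1, 71 and 83 without distal array 2, 66 and 87 without proximal array 1, and 79 and 88 without proximal array 3. With the replicate number as a block they were 306 and 463.

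The distal arch programme was not called distally in the maxilla. None of its 23 genes was called higher distally in the maxilla, where the median was -0.05 and 3 were called proximally. Barx1 differed by -0.13 ± 0.24 in the maxilla, at 11.79 ± 0.11 (SD, n = 3) distally and 11.91 ± 0.27 proximally, so both maxillary ends were near the proximal mandible, and the axes differed (adjusted p = 0.000198). Nr2f1 likewise stood at 12.07 ± 0.09 and 12.42 ± 0.07 in the maxilla (axes differ, adjusted p = 0.00161). Bmp4 (adjusted p of the difference 0.0055), Smad7 (0.00428), Cited1 (0.00435) and Alx1 (0.0109) also differed between the jaws, with Alx1 at 9.47 ± 0.60 and 8.95 ± 0.40 in the maxilla, between the mandibular ends; without both arrays 1 its adjusted p was 0.0888. Hand2 was not shown to differ in slope (adjusted p = 0.231). Msx2 had opposite signs, higher distally in the mandible and higher proximally in the maxilla (-1.90, adjusted p = 0.00189), with an adjusted p of 0.00281 for the difference.

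Muscle genes also differed between the jaws. In the maxilla no contractile gene was called, and the median difference was -0.58. Mean muscle signal was high at both maxillary ends, 9.51 to 10.005 distally and 10.1 to 10.4 proximally, and low in the distal mandible only, among the control groups. The interaction was called for 19 of the 41 genes, all with a more negative distal minus proximal difference in the mandible. Tnnc2 stood at -4.26 ± 0.71 (adjusted p = 0.00428) and Myl1 at -3.66 ± 0.62 (adjusted p = 0.00428). Sensory ganglion genes were graded in the maxilla: 20 of 29 were called higher proximally in the maxilla, where the median was -1.74, and 13 were called in the interaction, with Pou4f1 at 7.997 ± 0.65 (SD) in the proximal maxilla. Cartilage genes were called higher proximally in 12 of 24 in the maxilla with a median of -2.29. Epithelium was higher distally in both jaws, with 27 of 36 called in the maxilla, a median of 1.22 and none called in the interaction, which does not show equality. The macrophage list, higher at the proximal end in the mandible, had 1 call distally in the maxilla, and the interaction was called for 7 of 19.

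**Figure D3:**
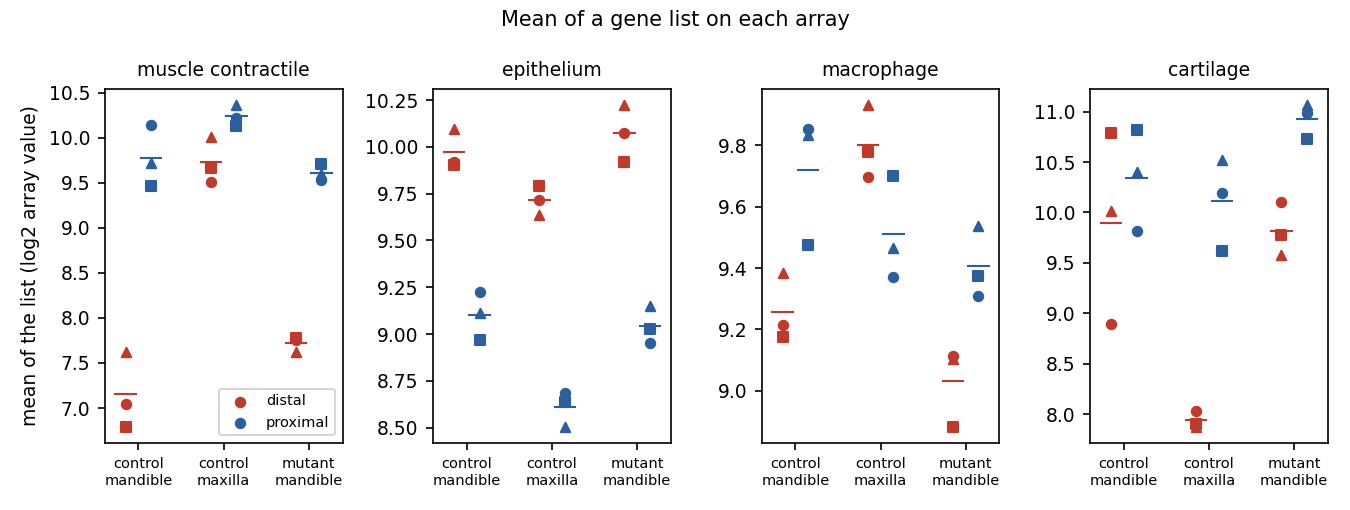
Mean log2 array value of 4 gene lists (vertical axes, each with its own range) on each distal (red) and proximal (blue) array of control mandible, control maxilla and mutant mandible, with circle, square and triangle for arrays 1, 2 and 3 and the group mean as a bar. Muscle means in the control mandible are 6.79 to 7.62 distally and 9.46 to 10.15 proximally, epithelium means are higher distally in all 3 tissues, and cartilage means overlap in the control mandible.

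In the mandible of mutants the axis had mostly the signs of the control axis. There 1048 genes were called higher distally (7.57%) and 1154 proximally (8.33%). Of the 1844 control calls, 1812 had the same sign and 1329 were called in the same direction, 72.1% of the control and 60.4% of the mutant calls, and the differences correlated at a Pearson r of 0.882 and a Spearman rho of 0.737 across genes. Barx1 differed by -3.34 in mutants, Alx1 by 4.11, Hand2 by 2.16 and Nr2f1 by -2.37, and 35 of 41 contractile genes were called higher proximally with a median of -1.95 beside -2.49 in controls. No gene was called for a difference between the control and mutant axes with limma, where 552 had an unadjusted p under 0.05 and the smallest adjusted p was 0.136. With the replicate set as a random block, the distal minus proximal difference was called more positive in controls for 2 genes and more negative for 5. The brightest Tgfbr2 probe set read 12.41 ± 0.07 (SD) distally and 12.38 ± 0.02 proximally in mutants, and whether it lies in the deleted part is not known here, so it does not check the genotype labels.

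**Figure D4:**
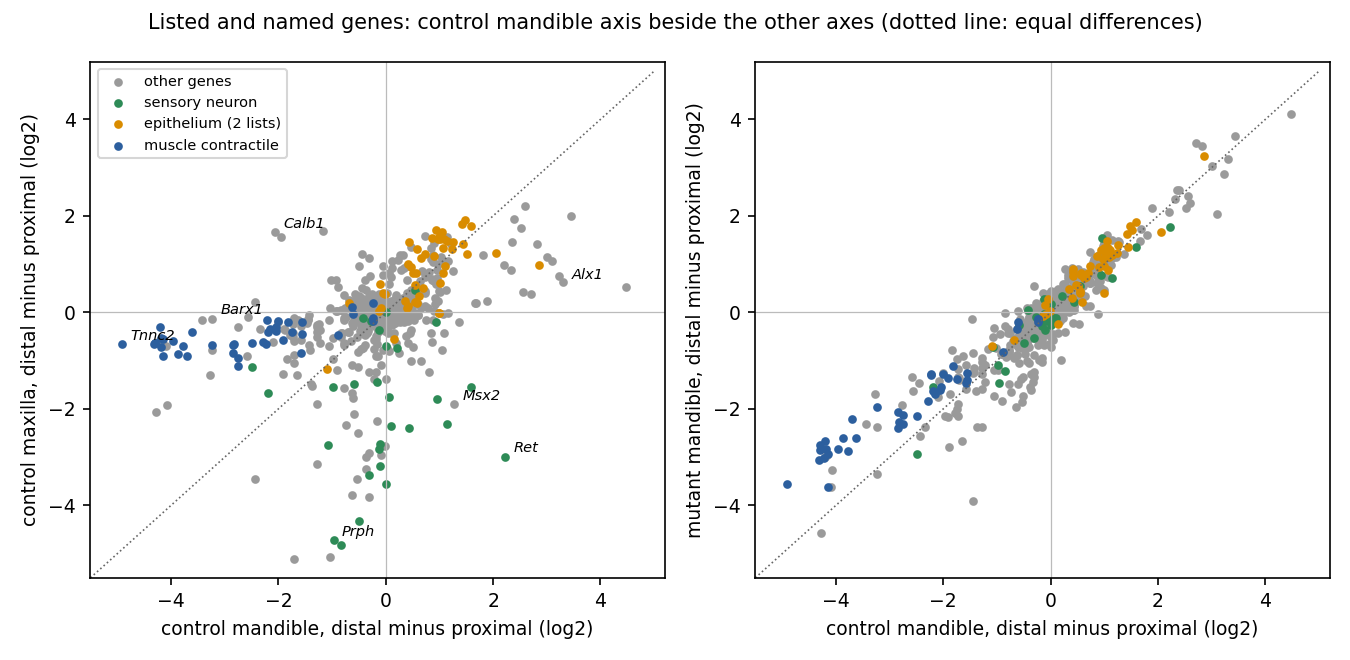
Log2 difference, distal minus proximal, of 638 listed and named genes in the control mandible (horizontal axes) against the control maxilla (left) and the mutant mandible (right), with lists coloured and the dotted line marking equal differences. Muscle contractile genes have a median of -2.49 in the control mandible, -0.58 in the maxilla and -1.95 in mutants, sensory neuron genes one of -1.74 in the maxilla and -0.11 in the control mandible, and Msx2 and Ret lie on opposite sides of 0 in the jaws.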

How the data were processed

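RNA of 24 dissected jaw ends was hybridised to Affymetrix mouse arrays. The deposited values are log2 signals per probe set, normalised with RMA (version not given), per the submitters' processing notes, so read depth has no meaning here and the 3 arrays a group limit the precision. Of 45101 probe sets, 34958 named 1 gene in the platform table, 932 several and 9211 none; 34754 matched RefSeq. Each of 18194 genes was taken at its brightest probe set, and 13850 above the 40th percentile of an array on at least 3 arrays were tested.

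limma 3.58.1 (R 4.3.3, statmod 1.5.0) was fitted to all 24 arrays with 1 coefficient a group and 16 residual degrees of freedom (lmFit, eBayes, Benjamini-Hochberg adjustment over all genes tested, threshold 0.05), and was tested on simulated data. The ends of the maxilla and of the mutant mandible were contrasted in the same fit. The alternatives were a replicate block (fixed or random), fewer arrays in the fit, other filters, the mean of probe sets, renormalization, and leaving out arrays or pairs.

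Deviations of distal and proximal arrays with the same number correlated at 0.491, 0.443 and 0.411, and with different numbers between -0.435 and -0.0575, so the numbers were taken to pair the samples. The pairing comes from the values, since the labels do not say what a number stands for.

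The 31 gene lists (712 symbols, 618 tested) and the comparison were chosen with earlier results of these data known. Genes were named by rule: the 15 largest called differences each way with arrays that do not overlap, up to 6 called members a direction of each list, any member of the 3 jaw and mesenchyme identity lists, the 5 largest each way of each difference between axes, and Tgfbr2. Myod1, Sp6, Chrna1, Pou4f1, Neurod1, Neurog2, Scn9a, Nefh, Tlx3, and Xist and Gapdh as array checks, lie outside it and were chosen after their values were seen, as were genes with opposite called signs in the jaws.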

Additional observations from a re-analysis of the deposited data

Results flagged for a closer look

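The axis of the control mandible differed from that of the control maxilla, by a test of the difference of differences in limma, in 157 genes in the positive and 221 in the negative direction. The receptor Ret had the largest positive value, 5.21 ± 0.57 (adjusted p = 0.000198), since it was higher distally in the mandible and higher proximally in the maxilla. The ganglion and axon genes Stmn3 (3.97), Sncg (3.82) and Prph (3.75) followed, with the homeobox gene Alx1 at 3.95. Of these, Ret and Sncg were called under all 17 alternatives and Stmn3 under 7 of 17. The largest negative values were those of the muscle genes Tnnc2 (-4.26), Tnnt2 (-3.91), Myh3 (-3.67) and Myl1 (-3.66), and of the calcium-binding gene Calb1 (-3.74), which was called under 9 of 16.

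Ret is 1 of 9 genes called in opposite directions in the jaws, and the other 8 are as follows. Msx2 stood at 3.18, Syt13 at 1.82, Rspo3 at 1.65, Draxin at 1.52, Kcnmb2 at 1.48, Cacna1e at 1.04 and Gdf10 at 0.88. In all of these the distal minus proximal difference was the more positive one in the mandible. The transcript BC035044 stood at -1.42. The call in the mandible itself was lost by Kcnmb2 without any single array (adjusted p 0.0608 to 0.17), by Gdf10 without any single array but proximal array 2, by Cacna1e without distal array 1, distal array 3, proximal array 1 or proximal array 2, by Rspo3 without proximal array 1 or proximal array 3, and by Msx2 without distal array 2, proximal array 1 or proximal array 2. On the distal mandible arrays Sncg, Prph and BC035044 were under the brightness cutoff, so their fitted values are no exact size.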

How the results depend on the processing

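The deviations of same-numbered arrays ran together, so a replicate block bears on the counts. With the replicate block as a fixed term 1590 genes were called higher distally and 1708 higher proximally, and as a random block 1525 and 1709. The fit of 12 control arrays gave 1787 and 1817, and that of the 6 arrays with the block 1316 distally. Between the jaws' axes the fixed block gave 306 and 463, the random block 383 and 577, and the 12 control arrays 494 and 570. The fixed block ended the call of none of the 183 called named genes. For control against mutant axes the random block gave 2 and 5.

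Without single arrays or pairs the mandibular counts ranged from 416 to 655 distally and from 494 to 920 proximally, and those between the jaws from 43 to 136 and from 48 to 324. Between the jaws, single arrays left 66 (without proximal array 1) to 136 positive calls and 83 (without distal array 2) to 324 negative ones. Pairs left 465, 416 and 432 distal and 494, 628 and 555 proximal calls in the mandible. Between the jaws they left 43, 84 and 70 positive calls, and 48 negative calls without both arrays 1 and 131 without both arrays 3. Fits without a pair rest on 2 arrays an end. None of the 183 called named genes turned its direction under any of the 19 alternatives that gave a value. Of these 183, 109 kept their call in every such alternative. Leaving out both arrays 1 ended the most calls, 60 of 183. These arrays also read as male, and whether sex has a part in this was not tested.

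The fixed block moved the proximal calls of hedgehog genes from 1 to 3 and the distal calls of axon guidance genes from 8 to 13. Proximal calls went from 6 to 8 in the proximal and intermediate jaw list, and from 0 to 1 in the red cell and hypoxia lists. Bone and pericyte genes each went from 0 distal and 5 proximal calls to 1 and 6. Endothelial genes went from 1 and 2 to 2 and 3, and immediate early genes from 4 and 1 to 5 and 2. Some other lists are given beside their counts, and not every list that moved is given.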
